A study of Homo sapiens with 8 samples.

Results

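The genes of MHC class I and its peptide loading machinery were followed in macrophage foam cells with and without auranofin, an oral gold drug that blocks thioredoxin reductases. They are the rows of the deposited count table with the symbols HLA-B, HLA-C, HLA-E and HLA-F (heavy chains), B2M (the light chain), TAP1 and TAP2 (the peptide transporter), TAPBP (tapasin) and NLRC5 (a transcriptional activator of the group). All 9 symbols were found among 62700 rows, and all 9 were among the 17535 genes that passed the filter on low counts.

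The cells were THP-1, a human monocytic leukaemia line, made into macrophages with 50 ng/mL of the phorbol ester PMA for 72 h and loaded for 48 h with acetylated LDL, a modified lipoprotein that fills macrophages with cholesteryl esters. One group of 4 libraries had vehicle (dimethyl sulfoxide, below 0.1% by volume, here DMSO) and the other 4 had 0.5 µM auranofin (here AF). Both groups had PMA and the lipid load. The sample protocol starts the drug 24 h before the load and keeps it on, whereas the series' design text puts the drug after the load. All libraries came from 1 cell line, and nothing in the labels says that they came from separate cultures, so the p-values cover the spread from library to library, and part or all of that spread may be technical. The library names share 4 stems, with 2 libraries to a stem and 2 stems to a group. The labels do not say whether the libraries of a stem came from 1 culture; if they did, n is 2 cultures in each group rather than 4.

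Depth was 19336073 to 32325981 counts per library. AF replicate 1 stood apart: rows named only by an Ensembl ID made up 33.6% of this library and 1.62% to 1.81% of each of the other 7, and rows of 5S, 5.8S, 18S, 28S or 45S ribosomal RNA took 1.39%, against 0.00957% to 0.0205%. Its TMM factor, which corrects the library size for such a shift, was 0.679, against 1.04 to 1.08. As a check of the drug, the gene of the drug's cytosolic target enzyme, TXNRD1, rose by 0.40 ± 0.06 on the log2 scale (SE; adjusted p = 0.000771, edgeR); with library totals alone, without the TMM factors, it was 0.26 and did not pass (adjusted p = 0.498). All 10 macrophage markers passed the filter on low counts, from CD68 at 1.498 ± 2.10 CPM to LYZ at 1434 ± 143 CPM in DMSO (SD, n = 4). CPM are read counts scaled to a common library size after the TMM correction. Of 10 markers of T, NK and B cells, 4 passed the filter on low counts. The highest in DMSO were NKG7 at 20.3 ± 2.05 CPM and GNLY at 9.76 ± 0.978 CPM (SD, n = 4). The T cell gene CD3E had 1 count over all 8 libraries and the B cell gene MS4A1 had 0.

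MHC class I molecules show peptides from inside the cell to CD8 T cells. A polymorphic heavy chain pairs with beta-2-microglobulin in the endoplasmic reticulum. The TAP1-TAP2 transporter brings in peptides cut by the proteasome, and tapasin holds the empty molecule at the transporter, with calreticulin and the disulfide isomerase PDIA3, until a peptide fits. NLRC5 raises transcription of class I genes through the same promoter boxes that its relative CIITA uses at class II genes, and interferons raise the whole group. Macrophages carry class I at all times and class II as antigen-presenting cells.

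With auranofin 3 of the 9 genes were higher and 0 were lower. TAP1, NLRC5 and HLA-E rose (adjusted p under 0.05 in edgeR's quasi-likelihood test, Benjamini-Hochberg over all genes). HLA-B, HLA-C, HLA-F, B2M, TAP2 and TAPBP did not pass. Across all genes tested, 15.4% were called, 7.62% higher and 7.81% lower; among the 3924 genes whose mean reached 50 CPM, 24.8% were called. The median log2 fold change of the 9 genes was 0.20, against 0.005 over all genes, and 8 of the 9 values were above 0, against 50.8% of all genes. The rises were small: the called genes stood between 1.16-fold and 1.27-fold of vehicle. A change in the share of cells that express a gene and a change in its RNA per cell cannot be told apart in such bulk libraries.

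**Figure D1:**
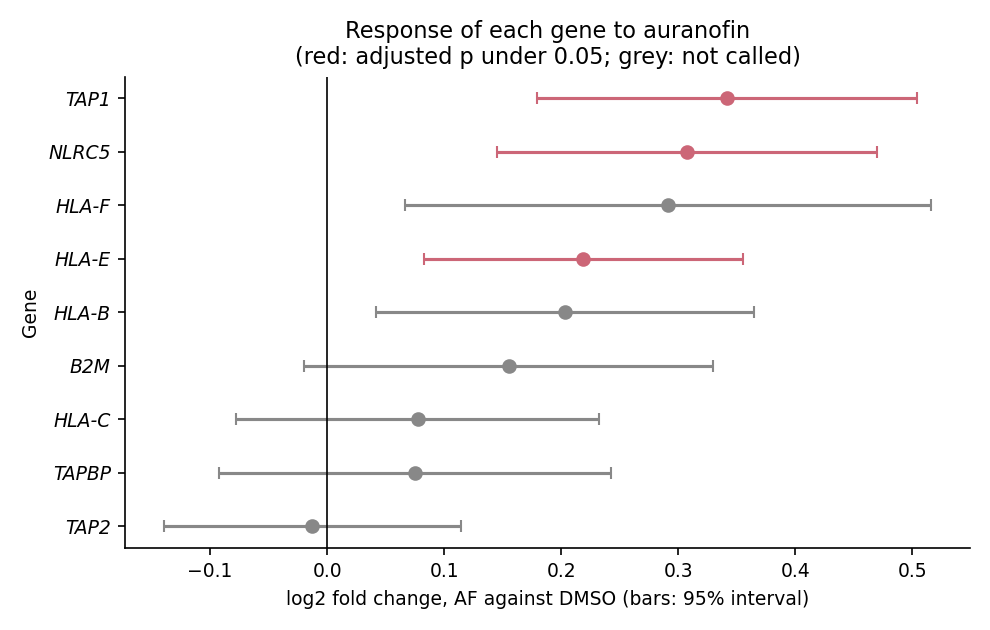
Log2 fold change of each gene, AF against DMSO, with its 95% interval (4 libraries per group); red marks the called genes TAP1, NLRC5 and HLA-E. The 9 values run from -0.01 for TAP2 to 0.34 for TAP1.

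Among the heavy chains, HLA-E was the one called. HLA-E, a conserved class Ib molecule that presents leader peptides of other class I chains to NK cell receptors, stood at 483, 507, 491 and 478 CPM in DMSO replicates 1 to 4 and at 584, 587, 574 and 536 CPM in AF replicates 1 to 4. Every AF library was above every DMSO library. That held for 3 of the 9 genes, HLA-B, HLA-E and TAP1, and for 9.86% of all genes; groups without overlap in either direction made up 19.5%. The means were 489.8 ± 12.7 and 570.1 ± 23.4 CPM (SD, n = 4), a log2 fold change of 0.22 ± 0.06 (SE; adjusted p = 0.0309, edgeR). The call held without AF replicate 1 or AF replicate 4 and was lost without any one of the 4 DMSO libraries, AF replicate 2 or AF replicate 3, with an adjusted p of 0.0581 to 0.0806. It was also lost when libraries that share a name stem were summed (0.0834).

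HLA-B, a classical heavy chain, stood at 1245, 1263, 1264 and 1166 CPM in DMSO and at 1393, 1551, 1451 and 1291 CPM in AF. The groups did not overlap, yet the AF libraries were spread widely, with replicates 2 and 3 high and replicate 4 low. The log2 fold change was 0.20 ± 0.08 (95% interval 0.04 to 0.36) and did not pass (adjusted p = 0.0845, edgeR). It passed without AF replicate 1 (0.0439) or AF replicate 4 (0.0259), and with DESeq2 (0.0110). HLA-C, the other classical chain in the set, stood at 776, 822, 808 and 746 CPM in DMSO and at 847, 893, 832 and 754 CPM in AF. Its groups overlapped, and the log2 fold change of 0.08 ± 0.07 did not pass (95% interval -0.08 to 0.23; adjusted p = 0.516, edgeR). A change of more than 0.23 lies outside that interval.

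HLA-F, a class Ib chain that can reach the surface as an open form, was the least abundant heavy chain of the 4. It stood at 14.2, 16.1, 17.3 and 13.4 CPM in DMSO and at 17.8, 20.2, 19.9 and 16.5 CPM in AF. DMSO replicate 3 lay above AF replicate 4, so the groups overlapped. The log2 fold change was 0.29 ± 0.11, larger than that of HLA-E but with a wider error, and did not pass (adjusted p = 0.0757, edgeR); it passed without AF replicate 4 (0.0279) and with DESeq2 (0.0424).

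B2M, the light chain shared by all these molecules, was the most abundant of the 9 genes, with rank 15 of 17535 by mean CPM in DMSO. It stood at 2898, 3104, 3179.8 and 3194 CPM in DMSO and at 3054, 3516, 3579.6 and 3630.1 CPM in AF. AF replicates 2 to 4 were above every DMSO library, while AF replicate 1, the library rich in ribosomal RNA, lay within the DMSO range. The log2 fold change of 0.16 ± 0.08 did not pass (95% interval -0.02 to 0.33; adjusted p = 0.221, edgeR). Without AF replicate 1 it was 0.20 and passed (adjusted p = 0.0212). AF replicate 4 had the highest B2M of the 4 AF libraries and the lowest HLA-B, HLA-C, HLA-E and HLA-F.

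NLRC5, the activator, rose. It stood at 52.1, 50.3, 51.1 and 46.0 CPM in DMSO and at 64.4, 66.3, 64.3 and 52.1 CPM in AF. Replicates 1 to 3 of AF were well above all DMSO libraries, and AF replicate 4 was level with the highest of them. The means were 49.9 ± 2.67 and 61.7 ± 6.52 CPM, a log2 fold change of 0.31 ± 0.08 (adjusted p = 0.0138, edgeR). The call was lost without AF replicate 3 (adjusted p = 0.0557) and held without each of the other 7 libraries.

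Of the transporter subunits, TAP1 was called and TAP2 was not. The ratio of their counts, given further below, overlapped between the groups (exact permutation p = 0.0571). TAP1 rose: it stood at 112, 105, 105 and 103 CPM in DMSO and at 127, 150.4, 146 and 114 CPM in AF, with no overlap between the groups. The means were 106 ± 4.196 and 134.6 ± 16.7 CPM, a log2 fold change of 0.34 ± 0.08 (adjusted p = 0.00749, edgeR). This was the steadiest call of the 3, since it held without any single library, with an adjusted p of 0.0309 or less. TAP2, which completes the transporter, stood at 48.3, 51.2, 49.3 and 53.0 CPM in DMSO and at 51.0, 47.9, 49.6 and 51.7 CPM in AF. Its log2 fold change was -0.01 ± 0.06 (95% interval -0.14 to 0.11; adjusted p = 0.914, edgeR), which leaves out a change as large as that measured for TAP1.

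TAPBP, tapasin, stood at 174, 191, 182 and 173 CPM in DMSO and at 184, 210.3, 207 and 158 CPM in AF. AF replicates 2 and 3 were the highest of all 8 libraries and AF replicate 4 the lowest. Its log2 fold change of 0.07 ± 0.08 did not pass (95% interval -0.09 to 0.24; adjusted p = 0.563, edgeR).

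**Figure D2:**
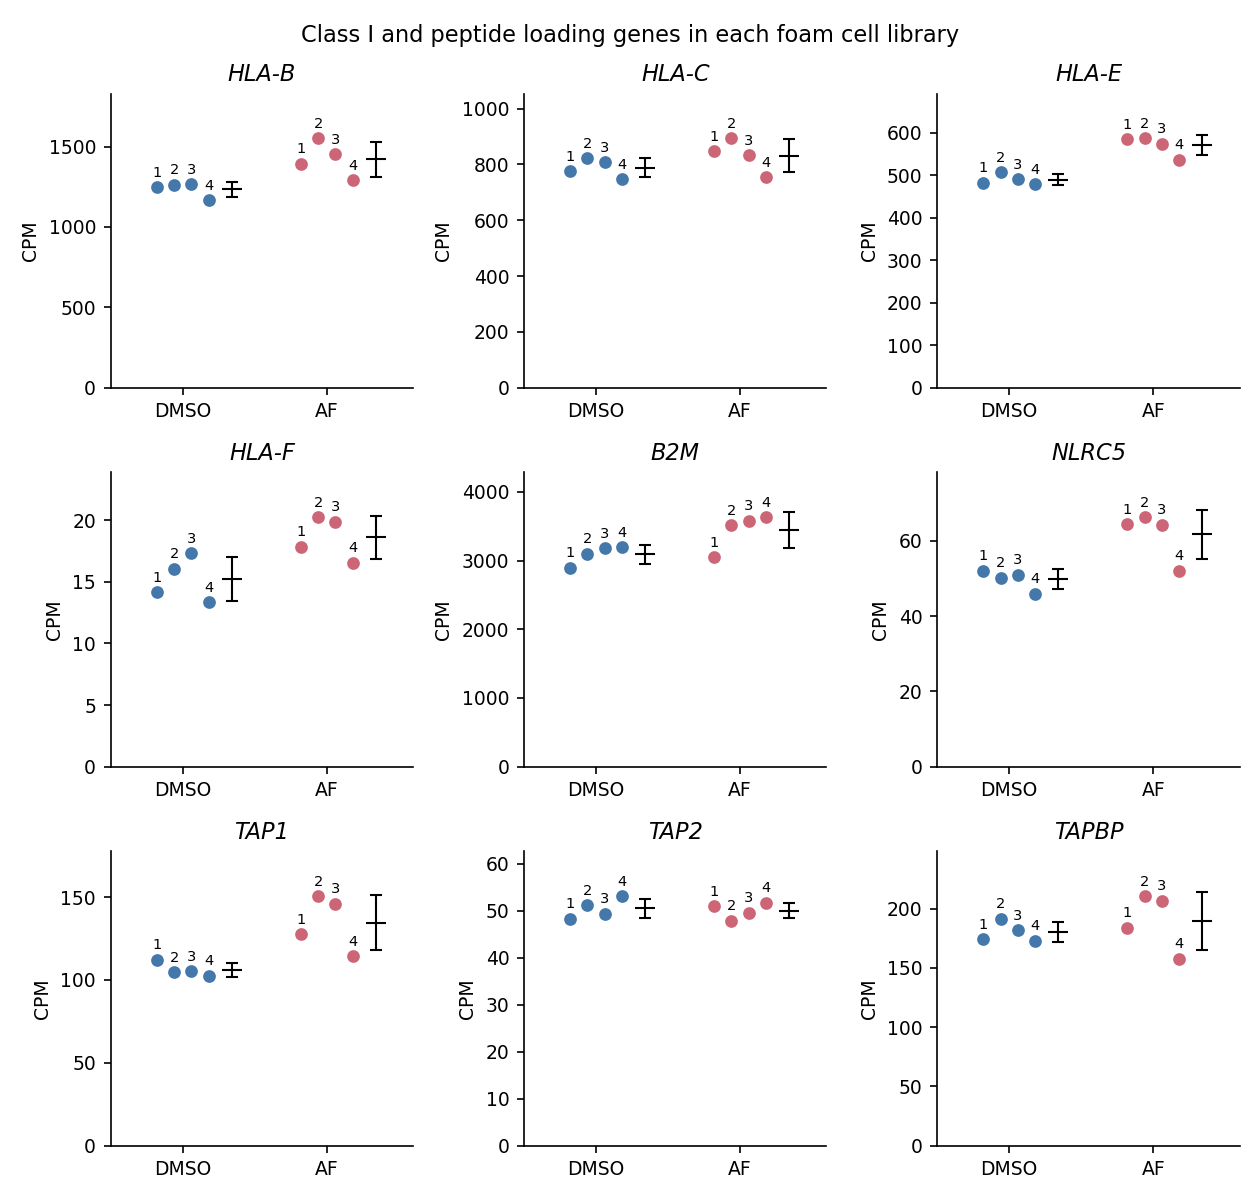
CPM of the 9 genes in each library; numbers are replicate numbers, and the bar beside each group is the mean with its SD (n = 4). AF replicates 2 and 3 stand high for HLA-B, TAP1 and TAPBP, AF replicate 4 stands low, and the TAP2 groups overlap.

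Scaling bears on all of these values. With library totals alone, which the surplus rows of AF replicate 1 enter, the median of all genes moved by -0.15 and 0 of the 9 genes were called. On the log2 scale TAP1 was then 0.20 above vehicle (adjusted p = 0.622, edgeR), NLRC5 0.15 and HLA-E 0.07, while HLA-C and TAPBP turned to -0.08 and -0.07. The same scaling left 1 rise (of 3) among the interferon receptor and signalling genes and 0 calls (of 4) among 12 other class I-like chains. Without AF replicate 1 and with TMM factors, 5 genes were called, HLA-B and B2M beside the 3.

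**Figure D3:**
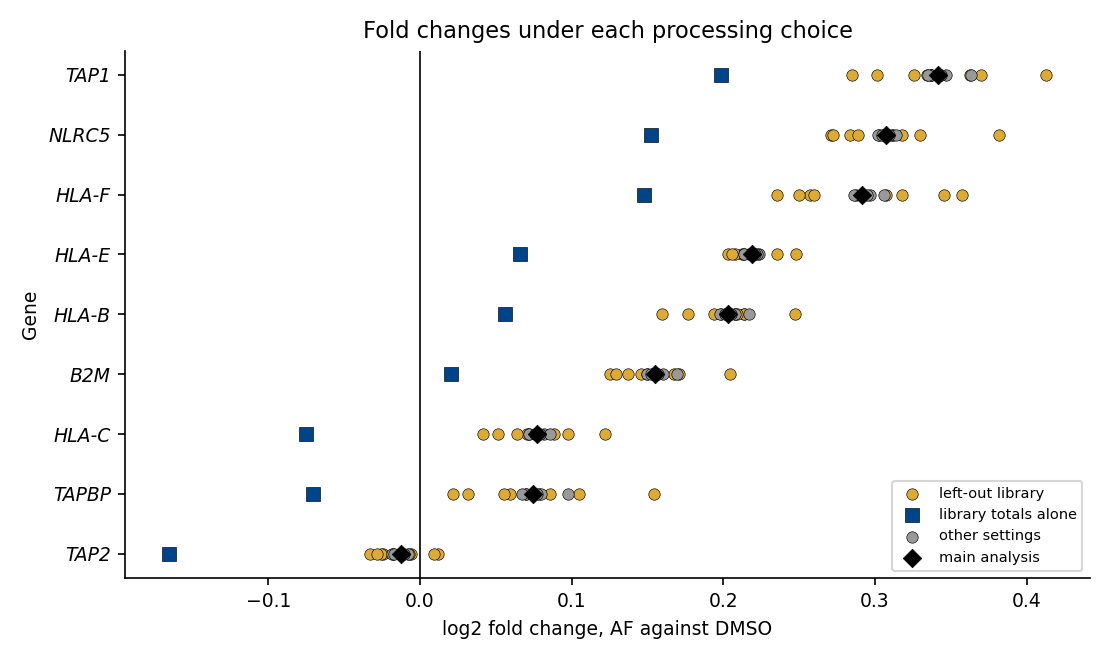
Log2 fold change of each gene, AF against DMSO, in the main analysis (black diamond), without each library (yellow), with library totals alone (blue square) and in the other settings (grey). The blue squares sit to the left of all other points, at 0.20 for TAP1 and -0.17 for TAP2.

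Ratios of raw counts within a library do not depend on that scaling. The TAP1 to TAP2 ratio was 2.324, 2.045, 2.135 and 1.935 in DMSO and 2.501, 3.141, 2.943 and 2.215 in AF. AF replicate 4 fell within the DMSO range, and the mean log2 ratio was 0.35 higher in AF (two-sided exact permutation p = 0.0571, where 0.0286 is the smallest that 4 against 4 libraries can give). The HLA-B to HLA-C ratio was 1.604, 1.537, 1.564 and 1.564 in DMSO and 1.645, 1.736, 1.744 and 1.712 in AF. Every AF library was above every DMSO library, by 0.125 on the log2 scale in the mean (exact permutation p = 0.0286). HLA-B, HLA-C, HLA-E and HLA-F over B2M gave exact permutation p of 0.314 to 0.629. These 6 ratios were chosen after the values were seen, and over the 6 the smallest adjusted p was 0.171.

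**Figure D4:**
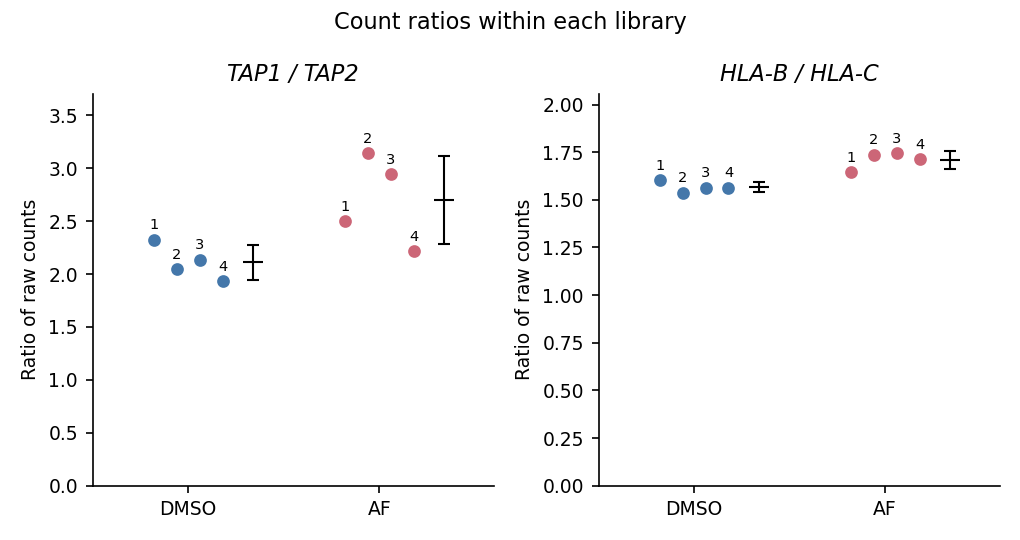
Ratio of raw counts within each library for TAP1 over TAP2 and HLA-B over HLA-C (numbers are replicates; bar, mean with SD, n = 4). AF replicates 2 and 3 have the highest TAP1 to TAP2 ratios, 3.141 and 2.943, and all AF libraries have a higher HLA-B to HLA-C ratio than all DMSO libraries.

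Levels of different genes were compared per length of the main GENCODE 29 transcript. In DMSO the order was B2M with 1815 CPM per kilobase, HLA-B with 798, HLA-C with 507, HLA-E with 188, TAPBP with 47.9, TAP1 with 35.9, HLA-F with 9.31, TAP2 with 8.88 and NLRC5 with 7.31. HLA-F and TAP2 overlapped over the DMSO libraries, and no other neighbours in this order did. With auranofin HLA-F and TAP2 did not overlap, whereas TAPBP (42.0 to 55.9) overlapped TAP1 (38.7 to 50.8) and TAP2 (8.42 to 9.09) overlapped NLRC5 (7.63 to 9.71). The counts per length of the TAP subunits, which work as a pair, thus differed by more than the spread between libraries in both groups. That spread does not measure errors from the counting or from the chosen length. Of the exon bases of TAP2, 32.3% are shared with a gene on the same strand, against 0% for TAP1. The lengths used were 5684 bases for TAP2 and 2959 for TAP1.

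On GRCh38 in GENCODE 29, 7 of the 9 genes lie in the MHC on chromosome 6: HLA-F from 29722775 to 29738528, HLA-E from 30489467 to 30494205, HLA-C from 31268749 to 31272130, HLA-B from 31269491 to 31357188, TAP2 from 32821833 to 32838780, TAP1 from 32845209 to 32853978 and TAPBP from 33299694 to 33314387. B2M lies on chromosome 15 from 44711487 to 44718877 and NLRC5 on chromosome 16 from 56989485 to 57083531. Counts are per gene. Of the exon bases of TAP2, 32.3% are shared with a gene on the same strand, and of those of HLA-F, 28.5% are covered on the other strand. For HLA-B the share on the other strand was 17.8% and for TAP1 it was 9.49%. The class I heavy chains are close relatives with many alleles, so some reads may have gone to the wrong relative or been lost where the alleles of THP-1 differ from the reference, and the values of HLA-B, HLA-C, HLA-E and HLA-F are uncertain to that extent. The authors' annotation may differ from GENCODE 29.

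Promoters of 7 of the 9 genes were matched in RefSeq (GRCh38.p14). None was matched for HLA-E or NLRC5, which were both called, so these genes are absent from what follows. The 200 bases before the start of 5 genes are printed. Of these, TAP1 was called, and HLA-B, HLA-C, B2M and TAP2 did not pass. Capitals mark matches, on either strand, to the core of the interferon-stimulated response element, ISRE (GAAA, any 2 bases, GAAA), to GAANNGAAA (a shorter form, added after the promoters were read, which can overlap the first), TGACG (core of the X2 box, where CREB and ATF factors bind), ATTGG (core of the Y box, where NF-Y binds), GGGNATTCC (a kappa B core) and TTCNNNGAA (core of the interferon gamma-activated site). Each sequence runs 5′ to 3′ on the gene's strand.
HLA-B, minus strand, chr6:31357180-31357379: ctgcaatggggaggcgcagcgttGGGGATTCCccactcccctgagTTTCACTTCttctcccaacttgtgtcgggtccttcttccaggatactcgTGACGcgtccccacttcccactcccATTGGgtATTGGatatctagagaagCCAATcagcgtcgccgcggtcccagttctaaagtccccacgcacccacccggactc
HLA-C, minus strand, chr6:31272093-31272292: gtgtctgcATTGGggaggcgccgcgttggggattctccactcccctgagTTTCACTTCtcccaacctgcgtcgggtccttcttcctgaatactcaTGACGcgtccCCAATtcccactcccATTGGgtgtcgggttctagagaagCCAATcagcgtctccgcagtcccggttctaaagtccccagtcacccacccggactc
B2M, plus strand, chr15:44711317-44711516: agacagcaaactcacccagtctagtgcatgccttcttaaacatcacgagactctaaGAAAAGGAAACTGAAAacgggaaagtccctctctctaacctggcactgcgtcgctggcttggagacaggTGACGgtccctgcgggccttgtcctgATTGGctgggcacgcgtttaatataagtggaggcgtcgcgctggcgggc
TAP1, minus strand, chr6:32853705-32853904: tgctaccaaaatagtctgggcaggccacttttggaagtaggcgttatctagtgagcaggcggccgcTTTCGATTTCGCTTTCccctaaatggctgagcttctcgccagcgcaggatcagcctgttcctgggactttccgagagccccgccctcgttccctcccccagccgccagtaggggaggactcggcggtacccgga
TAP2, minus strand, chr6:32838740-32838939: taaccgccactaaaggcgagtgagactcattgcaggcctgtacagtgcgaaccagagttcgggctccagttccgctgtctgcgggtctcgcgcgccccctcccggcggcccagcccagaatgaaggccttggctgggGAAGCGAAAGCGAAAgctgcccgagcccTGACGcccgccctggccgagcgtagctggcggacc

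The ISRE core was present in the windows of 5 of the 7 genes, HLA-F, B2M, TAP1, TAP2 and TAPBP, and in 2.4% of 34796 promoter windows of the same length. It was matched at overlapping places in B2M and TAP1, at 144 to 129 and 134 to 119 bases before the start, and at 58 to 49 bases before it in TAP2. The shorter form was matched in HLA-B, HLA-C and TAP2 and in 5.11% of windows. TGACG was found in HLA-B, HLA-C, B2M and TAP2 (18.4% of windows) and ATTGG in HLA-B, HLA-C, HLA-F and B2M (28.0% of windows). The kappa B form GGGNATTCC was matched in HLA-B alone of the 7, and in 0.563% of windows. Kappa B sites with other letters were not searched for, so a window without this match may still hold a kappa B site. TAP1 has a further RefSeq start, whose window held the match to TTCNNNGAA (5.09% of windows). TAP1, which rose, and TAP2, which did not pass, both carry an ISRE core; these matches are letters in a window, and binding was not measured.

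Of 13 partners of peptide loading in the endoplasmic reticulum, 2 rose, 0 fell and 11 did not pass, with a median log2 fold change of 0.06. That is the share called over all genes, 15.4%, and with library totals alone 0 were called. HSPA5, the general lumenal chaperone BiP, rose by 0.29 ± 0.07 (adjusted p = 0.0138, edgeR), lost without DMSO replicate 2 (0.066). CALR, calreticulin of the loading complex, rose from 1946 ± 33.2 to 2307 ± 129.5 CPM, by 0.25 ± 0.07 on the log2 scale; its call was lost without 6 of the 8 libraries taken singly, with an adjusted p up to 0.103. PDIA3, which is joined to tapasin by a disulfide in that complex, did not pass, at 0.19 ± 0.07 on the log2 scale (adjusted p = 0.0951, edgeR), though its groups did not overlap.

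No gene of the immunoproteasome, the form of the proteasome that cuts peptides suited to class I, was called. Of 6 genes of the immunoproteasome, its activator PA28 and its assembly, 0 rose and 0 fell, with a median of 0.09. Over all genes 15.4% were called, and 6 genes are too few to tell 0 calls from that share. DESeq2 also called 0, and PSMB9 and PSME1 had an unadjusted p under 0.05 in edgeR. PSMB9 is the neighbour of TAP1 and shares its upstream region. It stood at 47.1, 45.0, 43.0 and 42.2 CPM in DMSO and at 53.9, 55.3, 50.4 and 41.5 CPM in AF, so that AF replicates 1 to 3 were above all DMSO libraries and AF replicate 4 was below them. Its log2 fold change was 0.18 ± 0.08 (adjusted p = 0.164, edgeR), and it passed without AF replicate 4 (0.0153). The catalytic subunit genes PSMB8 and PSMB10 had values of 0.07 ± 0.05 and -0.15 ± 0.09, and neither passed.

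Among 21 transcription factors known to act on class I promoters, 4 rose, 2 fell and 15 did not pass, with a median of 0.03. The share called over all genes was 15.4%, and 24.8% among genes whose mean reached 50 CPM. With library totals alone 0 of these factors rose and 0 fell. IRF2, an interferon regulatory factor that binds the ISRE, rose from 46.2 ± 1.48 to 64.0 ± 3.01 CPM, by 0.47 ± 0.06 (adjusted p = 0.000108, edgeR), with no overlap between the groups. IRF1, which activates TAP1 and PSMB9 under interferon gamma, stood at 28.5, 28.0, 29.3 and 29.5 CPM in DMSO and at 33.2, 36.4, 35.9 and 35.3 CPM in AF and rose by 0.29 ± 0.08 (adjusted p = 0.0254, edgeR); its call was lost without 5 of the 8 libraries taken singly, up to an adjusted p of 0.0819. ATF1, of the CREB family, rose by 0.36 ± 0.08, a call lost with libraries of a stem summed (adjusted p = 0.0597, edgeR).

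NFKB1, which encodes an NF-kB subunit, stood at 63.6, 59.3, 58.6 and 66.6 CPM in DMSO and at 66.0, 103.2, 100.6 and 69.5 CPM in AF. The 2 high AF libraries, replicates 2 and 3, are those highest in TAP1 and TAPBP. NFKB1 rose by 0.46 ± 0.12 (adjusted p = 0.0209, edgeR), and the call was lost without replicate 2 or 3 of either group, up to 0.0745. NFYA, a subunit of the Y box factor NF-Y, fell by 0.28 ± 0.05 (adjusted p = 0.00181, edgeR). RFX5, the subunit of the X box complex that NLRC5 and CIITA share, stood at -0.02 ± 0.07 on the log2 scale and did not pass.

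Of 10 interferon receptor and signalling genes, 3 rose, 1 fell and 6 did not pass, with a median log2 fold change of 0.20. Over all genes 15.4% were called. SOCS3, a feedback inhibitor of cytokine signalling, rose by 1.20 ± 0.13 (adjusted p = 3e-05, edgeR). IFNGR1, a chain of the interferon gamma receptor, rose from 359.9 ± 17.5 to 477 ± 49.1 CPM, by 0.41 ± 0.08 (adjusted p = 0.00271, edgeR), and its call held without any single library. IFNAR1 of the type I receptor had a value of 0.26 ± 0.07 and the kinase gene JAK2 of -0.27 ± 0.09; these calls were lost without 3 and 6 of the 8 libraries taken singly, up to 0.0772 and 0.144.

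Class I-like heavy chains outside the 9 genes had a median log2 fold change of 0.19, near the 0.20 of the 9 genes. Of 12 tested, 11 had values above 0. Calls were fewer: 3 rose, 1 fell and 8 did not pass, where 15.4% of all genes were called. MICA, a stress-induced ligand of the NK receptor NKG2D, stood at 6.08 ± 0.0551 CPM in DMSO and 8.24 ± 0.750 in AF and rose by 0.43 ± 0.10 (adjusted p = 0.0115, edgeR). MICB (0.31 ± 0.09) and the lipid-presenting CD1D (0.22 ± 0.07) rose, and FCGRT, the chain of the neonatal Fc receptor that pairs with B2M, fell by 0.25 ± 0.08. These 3 calls were lost without 5 to 7 of the 8 libraries taken singly, up to adjusted p of 0.123, 0.138 and 0.143.

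Of 5 genes tested from the LILR family of myeloid receptors, 1 rose, 1 fell and 3 did not pass, where 15.4% of all genes were called. Whether each of the 5 binds class I was not tested. LILRA2, an activating member of that receptor family, fell by 1.26 ± 0.10 on the log2 scale, from 20.8 ± 1.42 to 8.72 ± 0.931 CPM (adjusted p = 2.19e-06, edgeR). LILRB2, an inhibitory receptor for class I, rose by 0.34 ± 0.10 (adjusted p = 0.0300, edgeR), lost without replicate 1 or 2 of either group, up to 0.104. Of 14 genes of class I trafficking and turnover, 0 rose and 1 fell: LNPEP, an aminopeptidase used in cross-presentation, by 0.22 ± 0.06 (adjusted p = 0.0290, edgeR). That call was lost without 4 of the 8 libraries taken singly, AF replicate 1 among them, up to 0.0799.

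The class II genes, which share promoter boxes with class I, had values of the other sign. Of 10 class II genes tested, 0 rose, 5 fell and 5 did not pass, with a median log2 fold change of -0.36, against 0.20 for the 9 class I genes. Over all genes 7.81% were called lower. HLA-DRA, at 14.1 ± 0.988 CPM in DMSO, fell by 2.98 ± 0.13 and CD74, the invariant chain, by 0.86 ± 0.08. CD74 stood at 227, 240, 235 and 213 CPM in DMSO and at 131, 144, 120.5 and 109 CPM in AF. HLA-DRB1, named after its value was seen, was far more abundant than HLA-DRA, at 207 ± 17.7 CPM in DMSO. Its log2 fold change of -0.08 ± 0.07 did not pass (adjusted p = 0.497, edgeR). CIITA, the class II activator and relative of NLRC5, stood at 1.0 to 2.3 CPM in DMSO and 1.1 to 1.5 in AF, with a log2 fold change of -0.25 ± 0.25 that did not pass (adjusted p = 0.550, edgeR). NLRC5 was thus called and CIITA not, at a far lower CPM of CIITA; the difference between the 2 genes was not tested.

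Among interferon-stimulated genes outside class I, more fell than rose. Of 22 tested, 3 rose and 10 fell, with a median of -0.34. Over all genes 7.62% were called higher and 7.81% lower. With library totals alone 0 of the 22 rose and 8 fell. MX1, an antiviral GTPase gene, fell by 1.48 ± 0.15 and OAS3, an antiviral sensor gene, by 0.71 ± 0.09, while GBP5, a guanylate-binding protein gene, rose by 0.69 ± 0.10 (adjusted p = 1.37e-05, 8.3e-05 and 0.000388, edgeR). These 3 calls held without any single library. The 3 risers of this list were all guanylate-binding protein genes: GBP2 and GBP4, named after their values were seen, rose by 0.54 ± 0.09 and 0.74 ± 0.15. The fourth gene of that family in the list, GBP1, had the other sign and did not pass (-0.35 ± 0.14; adjusted p = 0.0950, edgeR). No test compared the lists with each other.

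**Figure D5:**
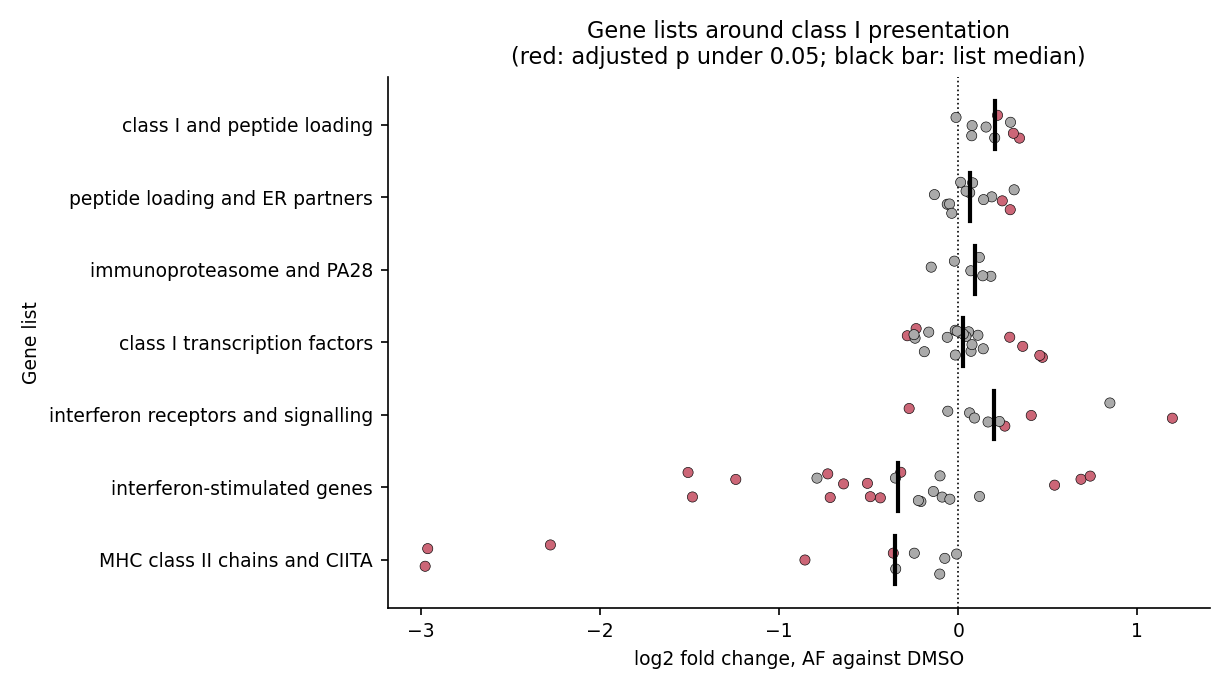
Log2 fold change, AF against DMSO, of each tested gene in 7 lists; red marks an adjusted p under 0.05 and the black bar the list median. The class I genes lie close to 0 on the upper side with a median of 0.20, whereas the medians of the interferon-stimulated and class II lists are -0.34 and -0.36.

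The 9 genes followed each other unevenly over the libraries. Pearson's r of log2 CPM over the 8 libraries, which share the group difference and the scaling, was 0.958 for HLA-B with NLRC5, 0.957 for HLA-B with TAP1, 0.944 for TAP1 with NLRC5 and 0.935 for HLA-E with NLRC5. It was 0.358 for B2M with NLRC5 and -0.580 for TAP2 with HLA-B. By the same measure, among genes that had a symbol and averaged 5 CPM or more, the genes most like TAP1 were RILPL2 (0.994), the autophagy receptor gene SQSTM1 (0.990) and the adhesion molecule gene ICAM1 (0.985). ICAM1 rose by 0.70 ± 0.14 and SQSTM1 by 0.38 ± 0.09. Those most like NLRC5 were CALCOCO1 (0.989), WBP2 (0.986) and PNKD (0.983). TM9SF4 (0.993) and GRINA (0.989) were among the 3 most like HLA-B, and EIF4A2 (0.973), C6orf89 (0.961) and C1orf54 (0.961) were most like B2M.

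Markers of macrophage state moved with the group as well. Of 10 macrophage markers 2 rose and 3 fell: ITGAM, an integrin chain, rose by 0.43 ± 0.07, the lysozyme gene LYZ fell by 0.95 ± 0.09, and the mannose receptor gene MRC1 fell by 1.497 ± 0.16. Over all genes 15.4% were called. The summed level of the 10 macrophage markers was 4013 to 4709.7 CPM in DMSO and 3392 to 3863 CPM in AF. Much of that difference lies in LYZ, the most abundant of the 10 in DMSO, whose mean went from 1434 to 745 CPM. The summed level of the 10 markers of T, NK and B cells was 31.8 to 37.4 CPM in DMSO and 27.2 to 31.8 in AF. Of 7 markers of fibroblasts and endothelium, COL3A1 fell, at 0.931 ± 0.404 CPM in DMSO, and their summed level, nearly all of it the adhesion gene PECAM1 that macrophages also express, was 317 to 328 CPM in DMSO and 301 to 329 in AF. Their part in the class I values was not tested.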

How the data were processed

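Poly-A RNA of 8 THP-1 foam cell libraries was sequenced, and the authors deposited 1 table of gene counts, as whole numbers that were not normalised. Per the submitters' processing notes, STAR 2.6.1d, featureCounts, Subread 1.6.3 and GRCh38 were used; the sources used here do not state the annotation, the strand setting or how multi-mapped reads were treated. Groups and replicate numbers come from sample titles.

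Counts were tested with edgeR 4.0.16 under R 4.3.3 (TMM, filterByExpr, quasi-likelihood F test, two-sided, Benjamini-Hochberg over all 17535 genes that passed the filter, threshold 0.05, no block, 6 residual degrees of freedom). The standard error is the size of the log2 fold change over the square root of F, and the 95% interval uses the moderated degrees of freedom. CPM were computed on the TMM-scaled library size. The test was checked on simulated data. Ratios of raw counts were compared by exact permutation of libraries (scipy 1.17.1). Alternatives were DESeq2 1.42.0, other scalings and filters, blocks, summed libraries and leaving out each library. Gene models came from GENCODE 29 and promoter sequences from RefSeq on GRCh38.p14.

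The 9 genes, the other lists and the rule for named genes were chosen with earlier results of these data known. The rule took the 9 genes, a fixed set of 12, and from each list up to 4 called genes and 1 uncalled gene of smallest p. It also took the 3 genes most correlated with each of 4 of the 9, at a mean of at least 5 CPM. A few of the genes chosen by this rule are left out of the text.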

Additional observations from a re-analysis of the deposited data

Results flagged for a closer look

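NLRC5 in AF replicate 4 stood apart from the other AF libraries: it was at 52.1 CPM, against 64.3 to 66.3 CPM in the other 3, a gap of 0.859 of the group's range. This is past the 95% limit of Dixon's test for 4 samples; chance alone gives about 1 such library in 20 groups, and 18 groups (9 genes in both conditions) were looked at. Without that library the log2 fold change of NLRC5 was 0.38, against 0.31 with it.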

How the results depend on the processing

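Of 153 values for the 9 genes under 17 alternatives, 129 kept their direction and their side of the threshold, 11 lost a call, 9 gained one and 4 changed sign; none of the 9 genes was called lower under any of them. The count of the 9 genes called higher, 3, was 0 with library totals alone, 5 with DESeq2 and 1 to 5 without single libraries (1 without AF replicate 3, 5 without AF replicate 1 or AF replicate 4). The count over all genes, 2705, was 883 with library totals alone and 1616 (without DMSO replicate 2) to 2964 without single libraries, among them 1648 without DMSO replicate 3 and 1660 without AF replicate 3. Library totals took the share of calls that were higher from 49.4% to 20.7%. Signs turned with library totals for HLA-C (-0.0750), TAPBP (-0.0706), C6orf89 (-0.0550) and PSMB8 (-0.084). TAP2 ran from -0.0328 to 0.0118 without single libraries, turning without DMSO replicate 4 and AF replicate 2 (0.00894); RFX5 ran from -0.0710 to 0.0274, turning without DMSO replicate 2 (0.00526), AF replicate 1 (0.0190) and AF replicate 4, and was 0.00575 with libraries of a shared name stem summed. With those libraries summed HLA-E did not pass (adjusted p = 0.0834, edgeR). The causes were not tested.

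Same-numbered libraries had correlated deviations from their group means of 0.0937, 0.129, 0.0288 and 0.192, not all above 0.1. The same-numbered AF library was the best match for DMSO replicates 1, 2 and 4. DMSO replicate 3 correlated best with AF replicate 2, by a small margin (0.0305 against 0.0288). The numbers were not taken to pair the libraries in the main test, and a pairing was not excluded. With the replicate block, 6 of the 9 genes and 4188 of all genes were called; HLA-B, HLA-F and B2M were the additions. PSMB9, outside the 9, also passed with that block (adjusted p = 0.0483, edgeR). The TAP1 to TAP2 and HLA-B to HLA-C ratios were also computed without each library, an alternative chosen after seeing the data.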
